A study of Mus musculus with 8 samples.

Results

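The 6 S100 genes S100a8, S100a9, S100a4, S100a6, S100a10 and S100a11 were chosen by name, out of 27998 genes in the count table, and were followed across progenitor states in 29891 KL (c-Kit+Lin-) bone marrow cells. All 6 were found in the table, together with 11 further S100 genes. The cells came from female B6 mice of 3 to 4 months of age. SPF mice had stayed in a barrier facility free of specific pathogens, and CVT mice had been moved from that facility to a conventional one and kept there with conventionally bred mice for 1 month. Each group held 4 pools. By the mouse numbers in the labels each pool held the marrow of 2 or 3 mice, and 10 mice stood behind each group. The paper instead gives 8 mice per group for these pools. No mouse carried an engineered allele or received a drug, and both groups shared the strain, the sex and the sort, which took CD117+ cells without CD3, CD4, CD8, CD45R, CD11b, TER119 or GR1. Pools 1, 2, 7 and 8 were SPF and pools 3 to 6 were CVT. Pools 1 to 4 (mice 1 to 10) are called pool set 1 and pools 5 to 8 (mice 11 to 20) pool set 2, after the mouse numbers in the labels. Pools were identified by the number that ends each cell's name, matched to the same number in the sample labels, and cell counts alone do not prove that match. This bears on comparisons of CVT with SPF and not on comparisons of cell classes within a pool.

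S100 proteins are small calcium-binding proteins that mostly work as dimers. S100a8 and S100a9 together form calprotectin, a major cytosolic protein of neutrophils and of inflammatory monocytes that is released in inflammation and binds the receptors Tlr4 and Ager. S100a4 and S100a6 are linked to cell movement and growth, and bind the myosin heavy chain Myh9 and the calcyclin-binding protein Cacybp respectively. S100a10 forms a complex with annexin Anxa2 and does not need calcium for it, while S100a11 binds annexin Anxa1.

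All 6 genes lie on chromosome 3. In the order of protein-coding genes S100a8 and S100a9 are direct neighbours, S100a6 lies 2 genes and S100a4 4 genes from S100a8, and S100a11 and S100a10 are neighbours 58 and 59 genes away. Promoter windows, from 250 bases before to 50 bases after the annotated start, were found in RefSeq (GRCm38.p6) for 5 of the 6 genes, without S100a10. For the counts themselves the labels' processing notes name mm9, which was not checked here. The windows are shown for the pair that followed each other over all classes, S100a8 (chr3:90668821-90669120, plus strand) and S100a9 (chr3:90695672-90695971, minus strand), and for the pair that was high in the same monocyte-like cells, S100a4 (chr3:90603520-90603819, plus strand) and S100a6 (chr3:90612644-90612943, plus strand). Capitals mark matches, on either strand, to 5 motifs.
S100a8: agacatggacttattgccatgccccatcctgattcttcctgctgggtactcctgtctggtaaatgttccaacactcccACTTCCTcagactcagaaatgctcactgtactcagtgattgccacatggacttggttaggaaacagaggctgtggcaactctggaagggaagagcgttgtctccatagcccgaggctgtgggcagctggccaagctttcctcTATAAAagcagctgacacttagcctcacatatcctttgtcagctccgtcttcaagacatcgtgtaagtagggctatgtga
S100a9: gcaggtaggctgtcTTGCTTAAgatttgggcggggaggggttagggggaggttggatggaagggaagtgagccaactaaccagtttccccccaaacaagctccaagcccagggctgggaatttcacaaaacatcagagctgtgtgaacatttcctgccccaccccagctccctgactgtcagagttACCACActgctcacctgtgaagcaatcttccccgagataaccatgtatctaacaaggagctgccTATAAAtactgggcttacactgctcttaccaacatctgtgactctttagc
S100a4: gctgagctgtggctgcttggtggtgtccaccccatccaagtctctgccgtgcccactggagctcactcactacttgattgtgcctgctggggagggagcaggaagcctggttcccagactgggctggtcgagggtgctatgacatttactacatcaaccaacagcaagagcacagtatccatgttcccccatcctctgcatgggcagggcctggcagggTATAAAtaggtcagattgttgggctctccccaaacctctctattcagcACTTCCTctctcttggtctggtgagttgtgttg
S100a6: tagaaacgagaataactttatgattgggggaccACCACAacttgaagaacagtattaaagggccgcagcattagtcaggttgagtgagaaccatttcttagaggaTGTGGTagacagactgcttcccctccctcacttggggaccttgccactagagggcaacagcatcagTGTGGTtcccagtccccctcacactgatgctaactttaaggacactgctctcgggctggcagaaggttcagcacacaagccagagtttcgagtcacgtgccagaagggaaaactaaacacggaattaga
The motifs were C/EBP (TTGCNNAA), PU.1 (AGGAAGT), AP-1 (TGANTCA), the TATA box (TATAAA) and Runx (TGTGGT), which 10.8%, 9.35%, 7.81%, 13.6% and 16.8% of 32851 RefSeq promoter windows of this length contain. S100a8 held a PU.1 match at -172 and a TATA box at -30, counted from the annotated start. S100a9 held a C/EBP match at -236, a Runx match at -64 and a TATA box at 1. S100a4 held a TATA box at -31 and a PU.1 match at 18. S100a6 held 3 Runx matches, all before the start. The window of S100a11 (chr3:93520246-93520545, plus strand) held 2 AP-1 matches, also before the start. These are matches of letters only, and the neighbouring S100a8 and S100a9 shared no motif but the TATA box.

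UMIs (unique molecular identifiers, 1 per captured transcript) were counted at the 3' end, so levels are given as CPM, the UMIs of a gene scaled to all UMIs of a pool's summed cells, without a correction for length. Pools held 41901551 to 59812346 UMIs in CVT and 19041749 to 49911524 in SPF, from 17560 and 12331 cells. Of all cells, 1048 (3.51%) carried a barcode that also occurred in another pool, with 6 to 33 shared by a pair of pools. Cells were clustered without any S100 gene among the variable genes, and clusters were named "-like" from marker lists. In all, 10 classes had at least 20 cells in every pool: LTHSC-like (long-term stem cells), MPP-like and LMPP-like (multipotent and lymphoid-primed progenitors), CMP-like (common myeloid), MK-like (megakaryocyte), MEP-like (erythroid), basophil/mast-like, GMP-like (granulocyte-monocyte), monocyte-like and neutrophil-like cells. The neutrophil-like class was present although the sort removed CD11b+ and GR1+ cells, and Ly6g, whose product GR1 antibodies bind, was among the leading genes of 2 of its 3 clusters. It made up 6.36%, 3.04%, 2.83%, 2.44%, 7.90%, 8.08%, 12.5% and 5.27% of cells in pools 1 to 8.

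The calprotectin genes were carried by a small part of the cells. S100a8 had 2426630 UMIs, the rank 9 among all genes, and S100a9 had 1579120, rank 41. The 10% of cells with the most S100a8 held 95.9% of its UMIs, and for S100a9 this was 95.6%. In neutrophil-like cells S100a8 stood at 188145, 149150, 137907, 116699, 162065, 159770, 188223 and 137750 CPM in pools 1 to 8. S100a9 stood there at 127468, 97194, 90721, 91018, 102791, 101761, 118909 and 90187 CPM. The lowest neutrophil-like pool lay far above every pool of every other class, and the CVT and SPF pools overlapped for both genes. This class held 87.2% to 94.7% of all S100a8 UMIs of a pool. Monocyte-like cells followed for S100a8 with 4467, 1477, 808, 434, 3462, 1930, 3782 and 3270 CPM in pools 1 to 8. The mean of the neutrophil-like class, 154964 CPM (SD 24974, n = 8 pools), was 63.2-fold that of monocyte-like cells and 400-fold that of LMPP-like cells, the lowest class.

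Neighbouring classes in the order of mean level were compared within pools by exact sign-flip permutation tests (two-sided, 8 pools, smallest possible p 0.0078), adjusted over 54 such tests for the 6 genes. The order was taken from the same 8 pools, so the pairs were not fixed beforehand and the adjustment does not cover this choice. The same holds for the steps in ratio given further on. For S100a8 neutrophil-like cells exceeded monocyte-like cells in 8 of 8 pools (6.31 ± 1.01 on the log2 scale, SD; exact permutation test, adjusted p = 0.0248), and monocyte-like exceeded basophil/mast-like cells in 8 of 8 (1.92 ± 1.03, adjusted p = 0.0248). The step above basophil/mast-like cells came through a single monocyte-like cluster of 582 cells, described further on, with 16889 CPM of S100a8 over all its cells. The monocyte-like clusters led by Irf8 and by F13a1 (1484 and 858 cells) had 346 and 338 CPM. Basophil/mast-like cells had 667 CPM when counted in the same way, over all cells. The other 7 steps did not pass. From basophil/mast-like cells (602 CPM) through GMP-like (565), MEP-like (542), MK-like (457), LTHSC-like (432), CMP-like (414) and MPP-like (394) to LMPP-like cells (388), no neighbours could be told apart. This order rested on few cells and on the clusters. Of the basophil/mast-like cells 6 of 939 held 35.5% of the UMIs of S100a8 and S100a9, and without cells of 100 or more such UMIs the level was 429 CPM there, 477 in GMP-like and 367 in MEP-like cells. With coarser clusters (resolution 1) GMP-like cells had 1274 CPM of S100a8 and 608 of S100a9. S100a9 followed the same course, with the same 2 steps at the top and 1 small step from CMP-like to MPP-like cells (0.09 ± 0.07, adjusted p = 0.0444).

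Outside neutrophil-like and monocyte-like cells S100a8 was low but nearly everywhere, at 0.131% to 0.860% of the neutrophil-like level of the same pool. After every cell had been thinned to 2759 UMIs, 61.6% of MEP-like cells, which are not known to make calprotectin, had an S100a8 UMI (range over pools 36.9% to 78.4%). The other non-neutrophil classes gave 62.5% to 68.4%, and unthinned shares ran from 86.1% to 98.4%. The thinned shares of whole classes differed little from each other. Whether they came from background (RNA of other cells in the droplet) or from expression was not tested. A GMP-like cluster described further on stood apart, which a share over its class does not show. Camp, a granule gene of neutrophils, gave 21.9% to 28.1% in the same classes. Per S100a8 UMI, Camp had a median over pools of 0.334 in neutrophil-like cells and 0.210 to 0.288 in the other 9 classes. For Retnlg, also a granule gene, these medians were 0.0186 and 0.0535 to 0.0989. What set these ratios was not tested. In each of the 9 classes the S100a8 level of a pool rose with the level of the whole pool, with Pearson's r from 0.641 to 0.940 over 8 pools that share cells and library with it, given as a description. The small step of S100a9 between CMP-like and MPP-like cells lay within these low levels.

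**Figure D1:**
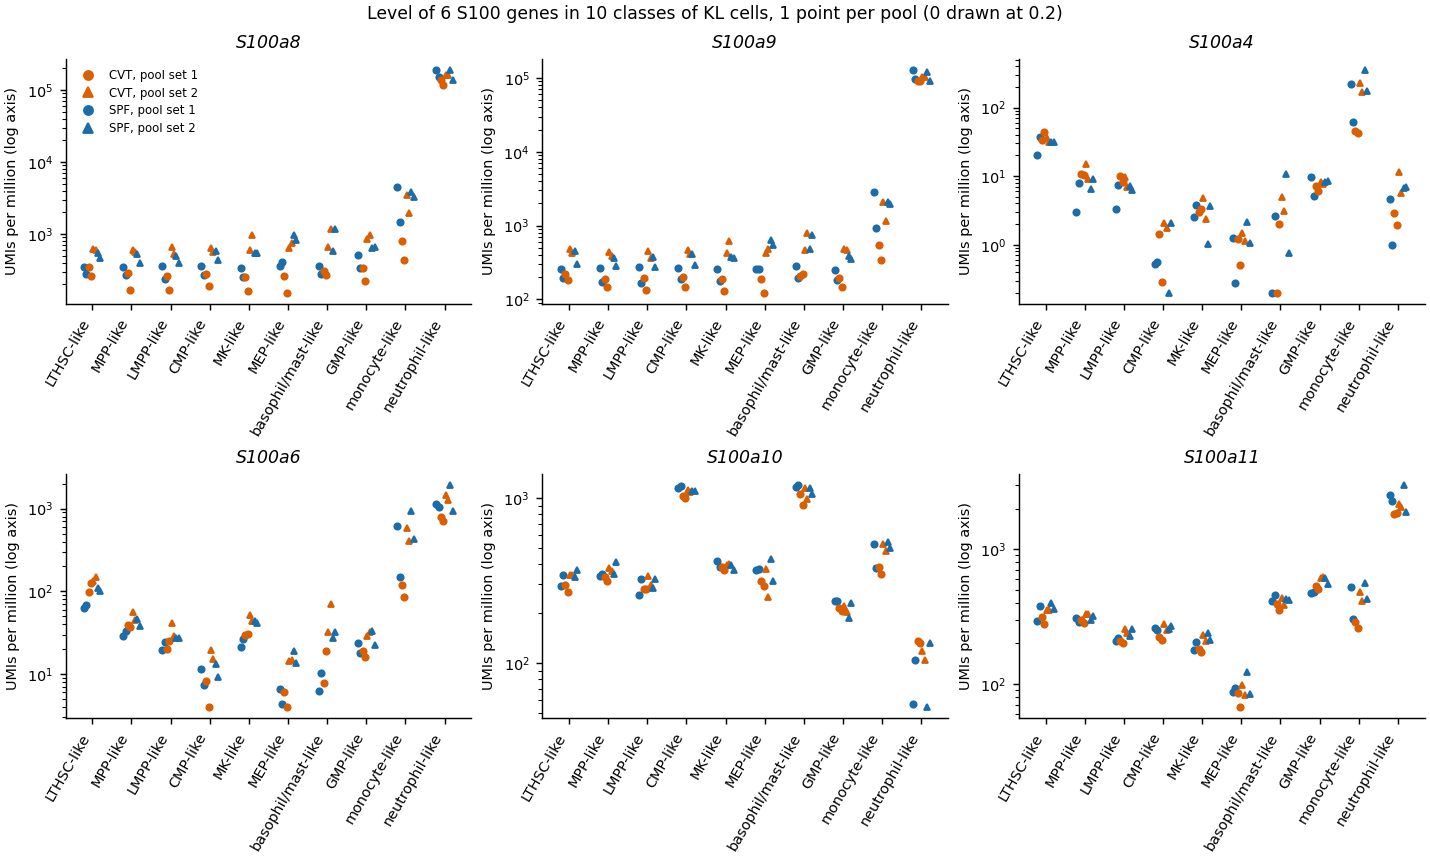
Level of each of the 6 S100 genes, in CPM on a log axis, in 10 classes, with 1 point per pool (orange CVT, blue SPF; circles pool set 1, triangles pool set 2; a level of 0 is drawn at 0.2). S100a8 and S100a9 stand near 154964 and 102506 CPM in neutrophil-like cells, S100a4 is highest in monocyte-like and S100a10 in CMP-like and basophil/mast-like cells.

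Within the neutrophil-like class 3 clusters differed in their S100 genes. These clusters, and the others singled out further on, were looked at after their values had been seen, so they are described over pools with no test. The cluster led by Fcnb, Chil3 and Camp (580 cells) had 160156 CPM of S100a8 over all its cells, that led by Ifitm6, Ltf and Lcn2 (756 cells) 228126, and that led by Retnlg, Mmp8 and Mmp9 (320 cells) 61535. The Ifitm6 cluster exceeded the Fcnb cluster in 8 of 8 pools, by 1.25- to 1.56-fold, and the Retnlg cluster in 8 of 8, by 3.04- to 4.83-fold. S100a9 gave 102816, 151829 and 39105 CPM in the same order. S100a6 differed more, with 335.5, 2662 and 1270 CPM, and the Ifitm6 cluster exceeded the Fcnb cluster by 5.78- to 14.2-fold. S100a11 gave 1729, 3623 and 1353 CPM. S100a10 went the other way. It stood at 30.7, 30.9 and 347 CPM, and the Retnlg cluster exceeded the Ifitm6 cluster in 8 of 8 pools by 6.34- to 17.9-fold. Of its 320 cells 175 (54.7%) were among those with the highest Scrublet scores, a measure of how much a droplet looks like a mixture of cells, against 0.661% in the Ifitm6 and 4.48% in the Fcnb cluster. Without such cells S100a10 stood at 363 CPM in the Retnlg and 30.4 in the Ifitm6 cluster, 7.60- to 19.5-fold apart in the 7 pools that still had cells of both. The Retnlg cluster held as few as 4 cells in a pool, and a cell of the Ifitm6 cluster held a median of 5106 UMIs against 10775 and 9551.5 in the others. CPM are shares of these totals, and the order per cell was not the same. The median cell of the Fcnb, Ifitm6 and Retnlg clusters held 1781.5, 1185.5 and 546 S100a8 UMIs. For S100a9 these were 1161.5, 793 and 350, for S100a6 1, 11 and 11, and for S100a11 19, 18 and 13.5.

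S100a9 and S100a8 kept nearly one ratio. It was 0.691 to 0.727 S100a9 UMIs per S100a8 UMI as the mean over pools in 7 classes, 0.666 ± 0.049 (SD, n = 8) in neutrophil-like and 0.638 ± 0.072 in monocyte-like cells. GMP-like cells had 0.559 ± 0.065, the lowest of the 10 classes in 7 of 8 pools. The step from monocyte-like to GMP-like cells gave an exact sign-flip permutation p of 0.0234 (two-sided), which did not hold after adjustment over 9 steps (adjusted p = 0.141). The lower value lay in 1 of 4 GMP-like clusters, led by Elane, Ms4a3 and Rgcc (927 cells), where the ratio ran from 0.290 to 0.505 over pools. In the other 3, led by Ly6c2 and Mpo, by Mcpt8 and Mpo, and by Elane and 2810417H13Rik, it ran from 0.614 to 0.860 with medians of 0.693, 0.700 and 0.690. S100a8 in the Ms4a3 cluster was 1075, 589.5, 498.9, 351.9, 1254, 1814, 784.9 and 1356 CPM in pools 1 to 8, higher than in the Ly6c2 cluster of the same pool in 8 of 8 pools by 1.46- to 3.47-fold. Without 20 of its cells that had 100 or more UMIs of S100a8 and S100a9 together it was higher in 8 of 8 pools by 1.44- to 2.28-fold, and the ratio ran from 0.320 to 0.505. With all cells S100a9 was higher than in the Ly6c2 cluster by 1.02- to 2.15-fold, and without cells of 100 or more such UMIs by 1.02- to 1.36-fold. Against the Mcpt8 and 2810417H13Rik clusters S100a9 was higher in only 7 of 8 pools each (lowest 0.948- and 0.990-fold). S100a11 was also higher in the Ms4a3 cluster, at 979 CPM over its cells against 417 in the Ly6c2 cluster (8 of 8 pools). S100a10 was lower, at 114 against 280 CPM, and S100a4 at 1.70 against 11.6 CPM, both in 8 of 8 pools.

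**Figure D2:**
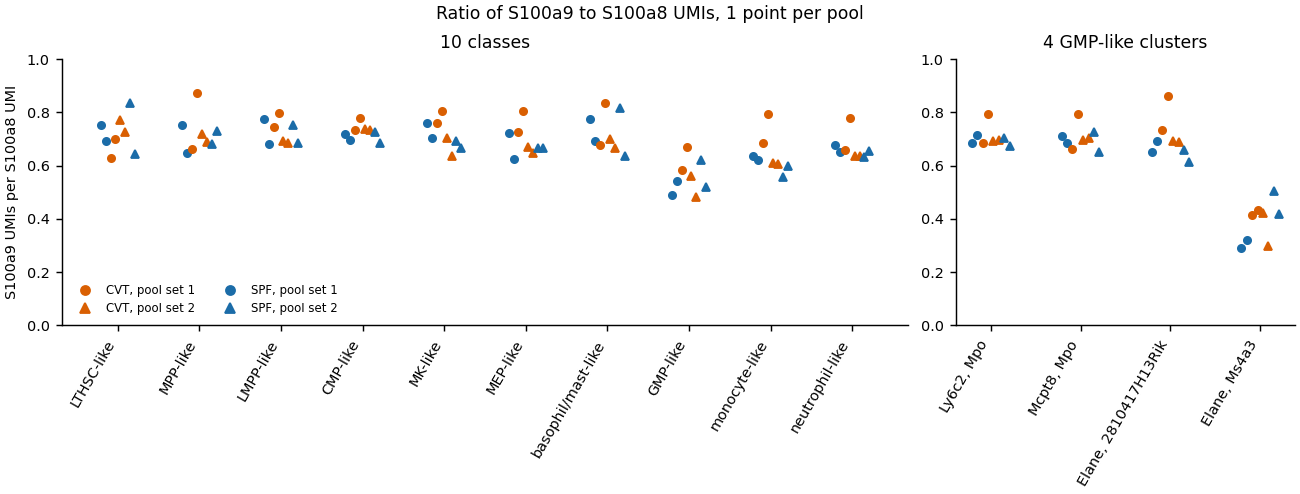
S100a9 UMIs per S100a8 UMI, 1 point per pool, in 10 classes and in the 4 GMP-like clusters named by 2 leading genes (colours and shapes as for the levels). The Elane, Ms4a3 cluster sits between 0.290 and 0.505, below the 3 other GMP-like clusters.

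Of the 10 classes, monocyte-like cells had the highest S100a4, through a single cluster of 582 cells described further on. The other monocyte-like clusters had 17.6 and 17.7 CPM over all their cells, below the 33.0 CPM of the LTHSC-like cluster. In the whole monocyte-like class the S100a4 level was 221, 60.8, 45.8, 42.9, 226, 166, 349.8 and 175 CPM in pools 1 to 8. The CVT and SPF pools overlapped. Among the 10 classes LTHSC-like cells came second, at 20.2, 37.1, 33.2, 44.5, 36.2, 31.5, 31.7 and 31.3 CPM. Monocyte-like exceeded LTHSC-like cells in 7 of 8 pools (1.92 ± 1.36 log2, exact permutation test, adjusted p = 0.0444), and LTHSC-like exceeded MPP-like cells (8.99 CPM) in 8 of 8 (1.84 ± 0.38, adjusted p = 0.0248). With coarser clusters (resolution 1) the LTHSC-like level was 20.3 CPM. Of the small groups of cells outside the 10 classes, T/NK-like clusters (92 and 49 cells) had 171 and 156 CPM and dendritic-like cells (80 cells) 94.1 CPM over all their cells, above the LTHSC-like level. No later step among the 10 classes passed, down to CMP-like cells at 1.09 CPM. With 7318 UMIs in all cells S100a4 was the scarcest of the 6 genes, and the 10% of cells with the most held 100% of its UMIs. Neutrophil-like cells, first for 4 of the 6 genes, had 5.15 ± 3.33 CPM of S100a4.

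S100a6 was high in the same monocyte-like cells and also in neutrophil-like cells. Its level in neutrophil-like cells was 1129, 1056, 790.1, 718, 1473, 1267, 1944 and 945 CPM in pools 1 to 8, and in monocyte-like cells 618, 148, 119, 86.1, 583, 409, 950.1 and 435 CPM. Neutrophil-like exceeded monocyte-like cells in 8 of 8 pools (1.82 ± 0.90 log2, exact permutation test, adjusted p = 0.0248). LTHSC-like cells had 106 ± 30 CPM (SD, n = 8) and exceeded MPP-like cells (40.6 CPM) in 8 of 8 pools (1.33 ± 0.26, adjusted p = 0.0248). Steps from MK-like to LMPP-like and from GMP-like to CMP-like cells passed as well, and MEP-like cells were lowest at 10.4 CPM. Per pool, neutrophil-like cells held 32.9% to 56.1% of S100a6 UMIs and monocyte-like cells 27.1% to 52.5%.

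A single monocyte-like cluster carried most of S100a4. It was led by Lgals3, Cd74 and Fn1, held 582 cells and included H2-Aa, a gene of antigen-presenting cells, among its leading genes. It held 64.7% of all S100a4 UMIs and 31.4% of all S100a6 UMIs. Its level over all its cells was 1127 CPM of S100a4 against 17.6 in the largest monocyte-like cluster, led by Irf8 and Ly86 (1484 cells), and it was higher in 8 of 8 pools by 43.3- to 113-fold. For S100a6 the values were 2897 and 42.3 CPM, for S100a10 1195 and 363, and for S100a11 1377 and 266. S100a8 differed too, at 16889 against 346 CPM, but its median cell held 5 S100a8 UMIs, and 107 monocyte-like cells with 100 or more UMIs of S100a8 and S100a9 together held 81.1% of the UMIs of both genes in the class. For S100a4 the median cell of the cluster held 8 UMIs and for S100a6 20. The cluster made up 0.551% to 4.22% of the cells of a pool (CVT 1.57 ± 1.22%, SPF 2.87 ± 1.44%, SD, n = 4 each; exact permutation test, two-sided, p = 0.229).

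**Figure D3:**
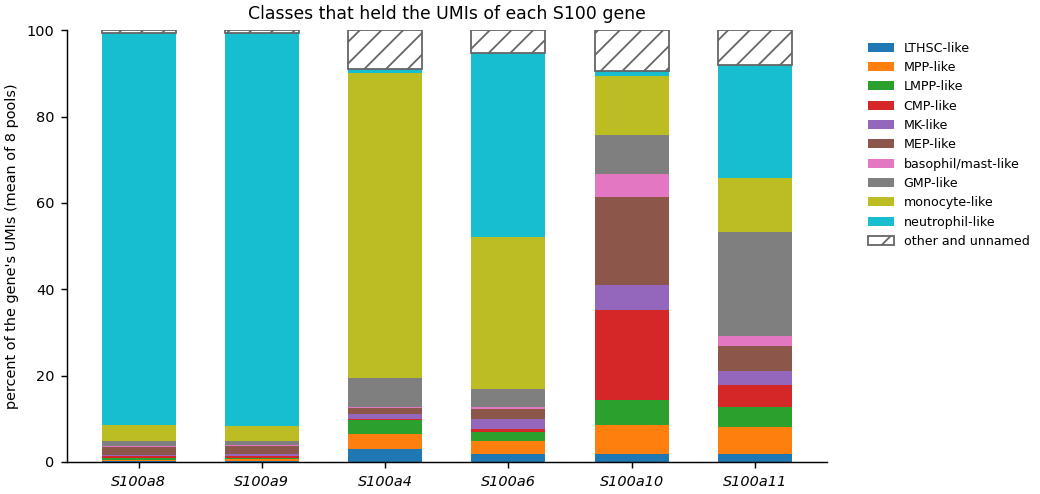
Share of the UMIs of each S100 gene that each class held, in percent, as the mean of 8 pools; the hatched part is cells of other classes or without a name. Neutrophil-like cells held most S100a8 and S100a9, monocyte-like cells most S100a4, and S100a10 was spread over many classes.

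S100a10 had a weak negative correlation with S100a8 and S100a9 over the clusters, and no such course against the other members. Over the 35 clusters its log2(CPM + 1) correlated at -0.435 and -0.425 with these 2, at 0.320 with S100a4, and at -0.091 and -0.095 with S100a6 and S100a11 (Pearson's r, a description, since clusters share libraries). This did not hold in each cluster. The monocyte-like Lgals3 cluster had the highest S100a10 of all, 1195 CPM, with 16889 CPM of S100a8. The Fcnb and Ifitm6 clusters differed in S100a8 but had 30.7 and 30.9 CPM of S100a10. CMP-like cells had 1147, 1188, 1026, 1001, 1110, 1085, 1101 and 1107 CPM in pools 1 to 8, and basophil/mast-like cells 1161, 1202, 1054, 911, 1147, 988, 1150 and 1053. The 2 classes could not be told apart (0.02 ± 0.08 log2, exact permutation test, adjusted p = 0.619). Basophil/mast-like exceeded monocyte-like cells (459 CPM) in 8 of 8 pools (1.25 ± 0.23, adjusted p = 0.0248). MK-like, MPP-like, MEP-like, LTHSC-like and LMPP-like cells lay between 387 and 297 CPM with no step that passed. LMPP-like exceeded GMP-like cells (218 CPM), and GMP-like exceeded neutrophil-like cells (105 ± 33 CPM), each in 8 of 8 pools with adjusted p = 0.0248. Without the cells of highest Scrublet scores the neutrophil-like level was 63.1 ± 20.1 CPM, and GMP-like cells exceeded it in 8 of 8 pools. Among all genes S100a10 ranked 309, with 131159 UMIs, and the 10% of cells with the most held only 29.4% of them.

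S100a11 was broadly present and highest in neutrophil-like cells. Neutrophil-like cells had 2513, 2287, 1836, 1859, 2163, 2067, 3011 and 1885 CPM in pools 1 to 8 and GMP-like cells 470.5, 480.0, 537, 509.8, 615, 627, 609.9 and 556. Neutrophil-like exceeded GMP-like cells in 8 of 8 pools (1.99 ± 0.28 log2, exact permutation test, adjusted p = 0.0248), and GMP-like exceeded basophil/mast-like cells (411 CPM) in 8 of 8 (0.42 ± 0.20, adjusted p = 0.0248). Among GMP-like clusters the Ms4a3 cluster had 979 CPM over all its cells. The Ly6c2, Mcpt8 and 2810417H13Rik clusters had 417, 351 and 386 CPM, near the 408 CPM of basophil/mast-like cells over all cells. MEP-like cells had the lowest level, 89.99 ± 15.8 CPM, and MK-like cells (203 CPM) exceeded them in 8 of 8 pools (1.18 ± 0.14, adjusted p = 0.0248). In CMP-like cells S100a10 had 4.41 UMIs for each S100a11 UMI, and in neutrophil-like cells 0.0508 (0.0280 without the cells of highest Scrublet scores).

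Along the 4 largest of 6 MEP-like clusters both genes fell together as a share of all UMIs. The cluster led by Gm15915 and Aqp1 had 733 CPM of S100a10, that led by Car1 and Ermap 389, that led by Mt2 and Sphk1 243, and that led by Fam132a and Cldn13 88.1. Each exceeded the next in 8 of 8 pools, by 1.70- to 2.16-fold, 1.27- to 1.87-fold and 2.16- to 4.05-fold. S100a11 gave 163, 100, 67.8 and 36.2 CPM in the same order, with each above the next in 8, 7 and 8 of 8 pools. S100a8, in contrast, stood at 357, 439, 408 and 448 CPM. The total UMIs of a cell also differed, with median relative totals of 1.15, 2.34, 2.22 and 3.04 in the same order. The median cell held 8, 8, 4 and 2 S100a10 UMIs, and 2, 2, 1 and 1 S100a11 UMIs. From the Gm15915 to the Car1 cluster the CPM of both genes thus fell without a fall in the median count per cell.

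**Figure D4:**
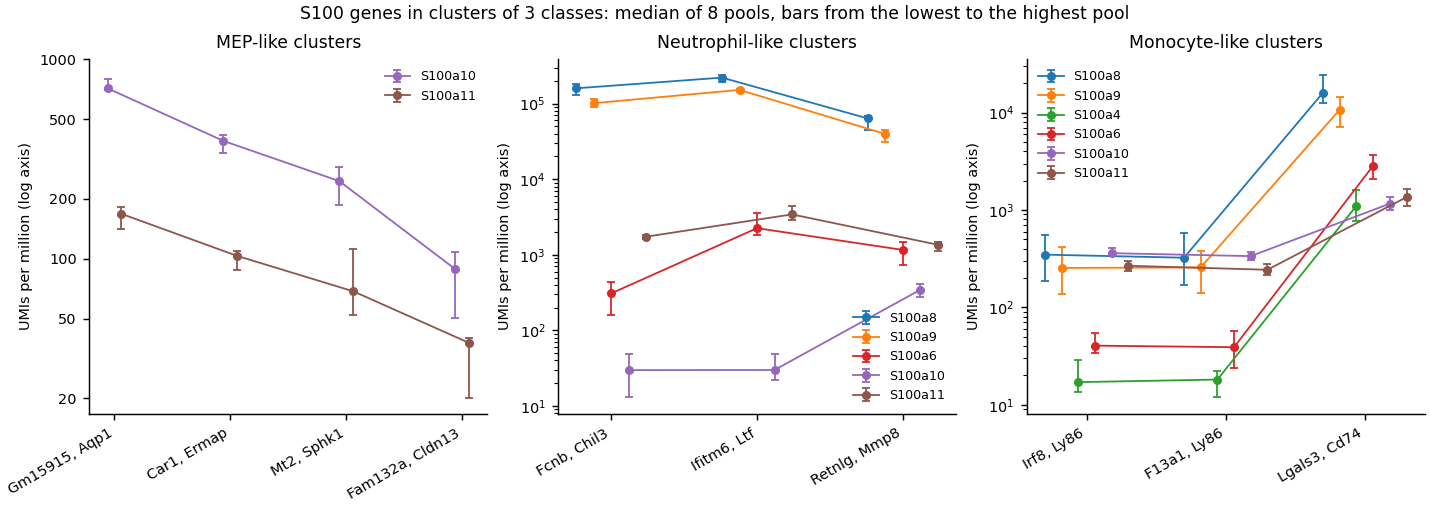
S100 genes in clusters of the MEP-like, neutrophil-like and monocyte-like classes, in CPM on a log axis; points are medians of 8 pools, bars run from the lowest to the highest pool, lines only join values of 1 gene, and clusters are named by 2 leading genes. S100a10 falls over the MEP-like clusters, from 733 to 88.1 CPM over all cells, and is highest in the Retnlg, Mmp8 cluster among neutrophil-like cells.

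The question of the study's design was whether 1 month of conventional co-housing changed gene expression in KL cells. Counts were summed per pool and tested with edgeR's quasi-likelihood test (Benjamini-Hochberg adjustment, threshold 0.05) in KL, LTHSC-like, LMPP-like, GMP-like and MEP-like cells. All 6 genes passed the filter on low counts in each, and 0 of 6 were called in any of the 5 populations. Of all genes tested, 0.0% were called in each population. At an unadjusted p under 0.05, 0 of 6 members stood in KL cells (7.03% of all genes), 1 of 6 in LTHSC-like (5.37%), 1 in LMPP-like (4.78%), 0 in GMP-like (5.85%) and 1 in MEP-like cells (4.1%). With DESeq2, 15 genes were called in KL cells, 1 each in LMPP-like and MEP-like cells and 0 in the others, and the members were not among them. The median log2 fold change of the 6 genes was -0.45 in KL cells (-0.01 over all genes), 0.25 in LTHSC-like (0.00), 0.14 in LMPP-like (0.01), 0.10 in GMP-like (0.00) and -0.22 in MEP-like cells (0.00).

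Over all KL cells S100a8 had 9249, 3970, 19728 and 7230 CPM in the SPF pools 1, 2, 7 and 8 and 3634, 2190, 11847 and 11002 in the CVT pools 3 to 6. The groups overlapped, pool 7 was the highest, and the order of pools was close to that of their shares of neutrophil-like cells given above. The log2 fold change (CVT against SPF) was -0.45 (SE 0.59, edgeR, adjusted p = 0.887) for S100a8, -0.45 (SE 0.55) for S100a9, -0.56 (SE 0.48) for S100a4 and -0.56 (SE 0.62) for S100a6. Without SPF pool 7 it became 0.13, 0.11, -0.20 and 0.09. Within pool set 1 alone it was -1.10, -1.02, -1.07 and -1.19 (adjusted p = 0.0764 to 0.126, where 1.1% of all genes were called), and within pool set 2 -0.21, -0.21, -0.30 and -0.34. In summed cells, fewer cells of a class and less RNA per cell cannot be told apart. The share of neutrophil-like cells was 5.31 ± 3.10% in CVT and 6.80 ± 4.07% in SPF pools (exact permutation test, p = 0.6). With neutrophil-like and monocyte-like cells left out, the log2 fold changes were -0.07, -0.08, 0.00 and -0.02. S100a10 had -0.16 (SE 0.07, unadjusted p = 0.0507, adjusted p = 0.699 by edgeR) with all cells and -0.18 without those 2 classes, and S100a11 -0.14 (SE 0.22).

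In LTHSC-like cells S100a6 had 62.7, 68, 110.0 and 101 CPM in the SPF pools 1, 2, 7 and 8 and 99.5, 125, 134 and 149 CPM in the CVT pools 3 to 6. Within each pool set both CVT pools lay above both SPF pools, and over all pools the groups overlapped, since the lowest CVT pool, of set 1, lay below both SPF pools of set 2. The log2 fold change was 0.63 (SE 0.15, edgeR, unadjusted p = 0.000175), and it did not pass adjustment over 6988 genes (adjusted p = 0.697). It was 0.80 (SE 0.24) within pool set 1 and 0.50 (SE 0.14) within pool set 2, and with the pool set as a block 0.59 (adjusted p = 0.0818). With every gene tested and no filter it was 0.60 with an adjusted p of 0.00779, the only setting in which it passed, among 16 genes called there (0.108%). Over all its alternatives the adjusted p ran from 0.00779 to 0.9999. The LTHSC-like class held 54 to 313 cells per pool. In the same cells S100a8 and S100a9 had 0.29 (SE 0.17) and 0.31 (SE 0.19), and 3 of 5 neutrophil granule genes were higher at an unadjusted p under 0.05, against 3.19% of all genes. The 5 summed to 134 to 426 CPM in the CVT and 201 to 323 CPM in the SPF pools. Within pool set 1, where S100a6 had 0.80, the 3 granule genes that could be tested had -1.53 to -0.04, and within pool set 2 all 5 had 0.32 to 0.95.

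In GMP-like cells S100a8 had 508, 341, 629 and 667 CPM in the SPF pools 1, 2, 7 and 8 and 334, 221, 843 and 975 CPM in the CVT pools 3 to 6. Both CVT pools of set 1 lay below both SPF pools, and both CVT pools of set 2 lay above both SPF pools. The log2 fold change was 0.18 (SE 0.33) over all pools, -0.54 (SE 0.14, edgeR, adjusted p = 0.114) within pool set 1 (0.264% of all genes called) and 0.53 (SE 0.06, adjusted p = 7.07e-05) within pool set 2 (0.137% called). The neutrophil gene Wfdc21 was among the 14 genes called in set 2, and 3 of 5 neutrophil granule genes (Camp, Ngp and Lcn2) were higher there at an unadjusted p under 0.05, while Ltf had -0.10 and Retnlg 0.26. The 5 granule genes summed to 136 to 459 CPM in the CVT and 178 to 380 CPM in the SPF pools, and GMP-like S100a8 moved with the whole pool (Pearson's r = 0.864, 8 pools). The share of background in these values was not tested. The difference between the pool sets was 1.06 (SE 0.19, adjusted p = 0.0226), 1 of 6 genes called of 10140 (0.0592%), and 1 of 30 such tests over the members. For S100a9 it was 0.66 (adjusted p = 0.103), with 0.40 (adjusted p = 0.00299) within pool set 2. The S100a8 difference lost its call without SPF pool 1 (0.79, adjusted p = 0.159), without CVT pool 6 (0.96, 0.0908) and without SPF pool 8 (1.09, 0.244). A set of 23 GMP-like cells had 100 or more UMIs of S100a8 and S100a9 together, and 12 of them came from CVT pool 6. Without these cells the difference was 0.71 (adjusted p = 0.121). With coarser clusters (resolution 1) it was -0.03.

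In MEP-like cells S100a8 had 361, 408, 965 and 816 CPM in the SPF pools 1, 2, 7 and 8 and 257, 153, 639 and 739.8 CPM in the CVT pools 3 to 6. In both pool sets both CVT pools lay below both SPF pools, although over all pools the groups overlapped. The log2 fold change was -0.50 (SE 0.43) for S100a8 and -0.47 (SE 0.39) for S100a9. Within pool set 1 they were -0.89 (SE 0.14, edgeR, adjusted p = 0.00838) and -0.71 (SE 0.12, adjusted p = 0.0122), where 0.185% of all genes were called, and within pool set 2 -0.36 and -0.38 (adjusted p = 0.789, 0.0191% called). The granulocyte genes Camp (-1.06, SE 0.17) and Ngp (-0.86, SE 0.15) were called lower with them in set 1, and all 5 granule genes were lower there at an unadjusted p under 0.05, from -1.06 to -0.83. In all, 20 genes were called in set 1, 9 higher and 11 lower in CVT. Elane, Ctsg, Mpo, Ms4a3 and Lyz2, of granulocyte and monocyte cells, were among them, and their directions are not given here. The 5 granule genes summed to 105 to 435 CPM in the CVT and 268 to 653 CPM in the SPF pools. The difference between the pool sets passed for neither gene (S100a8 0.53, adjusted p = 0.423 by edgeR, 0.00961% called). Whether S100a8 in MEP-like cells is background was not tested. Of these 4425 cells 17, with 100 or more UMIs of S100a8 and S100a9 together, held 28.5% of the UMIs of both genes. Pools 1 to 4 held 1, 2, 2 and 0 of these 17 cells. Without the 17 cells the log2 fold changes over all 8 pools were 0.05 for S100a8 and 0.04 for S100a9. The values within a pool set were not computed without them. S100a10 in MEP-like cells had a log2 fold change of -0.25 (SE 0.11, unadjusted p = 0.0415, adjusted p = 0.9999 by edgeR). In LMPP-like cells S100a4 had 0.47 (SE 0.22, unadjusted p = 0.0441, adjusted p = 0.987 by edgeR), and within pool set 1 0 of 6 members were called there (0.0598% of all genes).

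**Figure D5:**
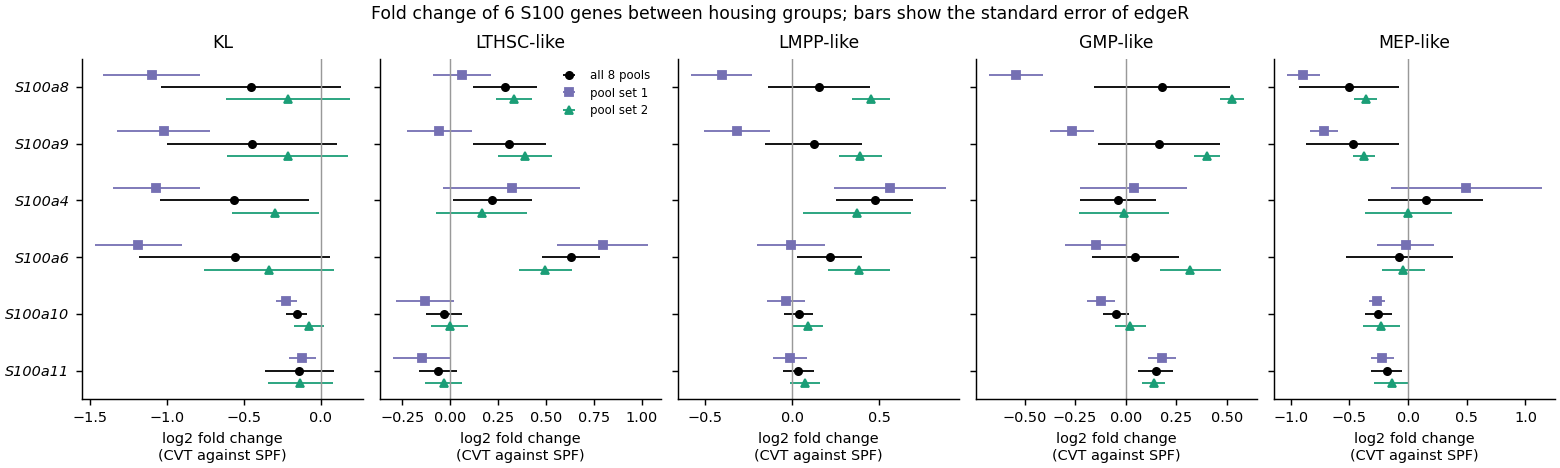
Log2 fold change (CVT against SPF) of the 6 S100 genes in 5 populations by edgeR, with all 8 pools (circles), within pool set 1 (squares) and within pool set 2 (triangles); bars show the standard error. No gene passed the adjusted threshold with all pools, and GMP-like S100a8 lies at -0.54 in pool set 1 and 0.53 in pool set 2.

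Over the 10 classes and KL cells together, 66 levels were compared between the groups. In 1 of 66 the CVT and SPF pools did not overlap, which was S100a4 in MPP-like cells. Among all genes with a mean of 1 CPM or more, the groups did not overlap for 4.71% in MPP-like, 6.35% in KL, 3.56% in CMP-like, 4.66% in GMP-like, 3.53% in LMPP-like, 3.09% in LTHSC-like, 2.77% in MEP-like, 2.94% in MK-like, 3.38% in basophil/mast-like, 3.62% in monocyte-like and 2.86% in neutrophil-like cells, so 1 of 66 was no more than this background. The level of S100a4 in MPP-like cells was 10.9, 10.4, 15 and 9.11 CPM in the CVT pools 3 to 6 and 2.98, 7.92, 6.49 and 9.08 CPM in the SPF pools 1, 2, 7 and 8. The exact permutation test (two-sided) gave p = 0.0286, the smallest that 4 against 4 pools allow, and 0.905 after adjustment over 66. The ratio of S100a9 to S100a8 in CMP-like cells gave the same smallest p (0.745 in CVT and 0.706 in SPF pools, exact permutation test, p = 0.0286), at low levels of both genes. So did the ratio of S100a11 to Anxa1 in GMP-like cells (4.44 in CVT and 3.78 in SPF pools). These were 2 of 97 ratio tests, and neither held after adjustment over them (adjusted p = 0.924, exact permutation test). The thinned share of MEP-like cells with an S100a11 UMI was 22.4% in CVT and 26.7% in SPF pools (exact permutation test, p = 0.0286, adjusted over 66 such tests 0.905).

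Among the 11 other S100 genes S100a1 and S100a13 reached 10 CPM in a class, with means of 140 CPM in MK-like and 211 CPM in neutrophil-like cells. The highest mean of the other 9 was 3.41 CPM, for S100a5 in LTHSC-like cells. Of 16 partner and receptor genes, 16, 11, 12, 14 and 12 were tested in KL, LTHSC-like, LMPP-like, GMP-like and MEP-like cells and 0 were called in either direction. At an unadjusted p under 0.05, 2 of 14 were higher in GMP-like cells (3.18% of all genes), which were Cd14 (0.84, SE 0.26) and Ly96 (0.50, SE 0.17), named after their values were seen. Cacybp was lower in GMP-like (-0.19, SE 0.05) and LMPP-like cells (-0.31, SE 0.08), as were 2.67% and 2.1% of all genes.

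Anxa2 and Anxa1, the annexins that S100a10 and S100a11 bind, were highest in neutrophil-like cells, unlike S100a10. Other annexins on the partner list differed. Anxa11 was also highest there (120 CPM), while Anxa5 was highest in LTHSC-like cells (155 CPM). Anxa6 was highest in monocyte-like cells (52.3 CPM) and lowest in neutrophil-like cells (9.25 CPM). Anxa2 was highest in neutrophil-like cells at 271 CPM and lowest in MEP-like cells at 10.1 CPM, while S100a10 was lowest in neutrophil-like cells. There were 33.5 S100a10 UMIs for each Anxa2 UMI in CMP-like cells, 33.6 in MEP-like cells and 0.413 in neutrophil-like cells (0.234 without the cells of highest Scrublet scores). Anxa1, the partner of S100a11, reached 2362 CPM in neutrophil-like and 12.4 CPM in MEP-like cells, the same ends as S100a11. Myh9 was highest in neutrophil-like cells (90.3 CPM), where S100a4 was low. Cacybp was highest in MEP-like cells (353 CPM), where S100a6 was lowest. Of the receptors, Tlr4 did not exceed 3.67 CPM and Ager 1.38 CPM in any class. Emb and Bsg, surface proteins reported to bind calprotectin subunits, reached 636 CPM in monocyte-like and 398 CPM in MEP-like cells.

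Genes with the most similar pattern over the 35 clusters were found by Pearson's correlation of log2(CPM + 1) among 10359 genes, as a description with no p, since clusters share libraries. For S100a8 they were Ltf, Wfdc21 and Lcn2 (r = 0.992, 0.991 and 0.991), and for S100a9 Ltf, Camp and Ngp (0.995, 0.993 and 0.992), all genes of neutrophil granules or of neutrophils. S100a4 was most like Il10ra, Ahnak and Rgs3 (0.895, 0.894 and 0.873). S100a6 was most like Slfn2, Lgals3 and Lilrb4a (0.923, 0.914 and 0.900), and S100a11 like Ostf1, Arhgdib and Dhrs7 (0.946, 0.946 and 0.938). S100a10 had the weakest likeness, to P2rx4, H2-Oa and Fbxo4 (0.864, 0.854 and 0.850). Among the members S100a8 and S100a9 correlated at 0.998, and S100a8 and S100a6 at 0.809.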

How the data were processed

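Single-cell RNA-seq (10x droplet 3' kit) of sorted KL cells was used, with 4 CVT and 4 SPF pools. The deposited file holds the authors' UMI counts per gene and cell, whole numbers without normalization, made with Cell Ranger on mm9 per the labels' processing notes. The number at the end of a cell name was matched to the number in a sample's description, and every CVT against SPF comparison rests on this match, since no separate table of cells and samples was used here. The 6 members, the gene lists and the classes were chosen with earlier results of these data known. All 29891 cells were used, with 2759 to 49732 UMIs and 502 to 5497 genes each. Counts were scaled to 10000 per cell and log-transformed, 1000 variable genes in 20 bins without S100 genes gave 30 principal components (scikit-learn 1.9.0), and a graph of 30 shared neighbours was clustered by Leiden (leidenalg 0.10.2, igraph 0.11.9, resolution 2, seed 1). Clusters were named from marker lists, with at least 3 markers. Scrublet (scanpy 1.11.5) marked 92 cells (0.308%), too few for it to have worked, so the 965 highest scores (3.23%) were also left out in an alternative added after seeing the data, as were settings that leave out monocyte-like cells or cells with 100 or more calprotectin UMIs.

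Sums of UMI counts over the cells of a pool entered edgeR 4.0.16 (TMM, filterByExpr, glmQLFTest) and DESeq2 1.42.0 (R 4.3.3) as an alternative, and scripts were tested on simulated data. Levels are CPM of pool sums, with a pseudocount of 1 for log2 values. Precision is given by the SD over pools and edgeR's SE, and p-values measure the spread between pools of, by the labels, 2 or 3 mice. Named genes were the 6 members, other S100 genes at 10 CPM or more in a class, 8 partners fixed by name, and for each member the 3 most similar genes. Cd14, Ly96, Anxa5, Anxa6 and Anxa11, and the clusters described, were named after their values were seen.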

Additional observations from a re-analysis of the deposited data

Results flagged for a closer look

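S100a10 in GMP-like cells was 188.5 CPM in SPF pool 7, apart from the 3 other SPF pools at 231 to 237 CPM. S100a10 in MPP-like cells was 408.6 CPM in SPF pool 8, apart from the 3 others at 336 to 348 CPM. These were the 2 groups of 132 in which 1 pool stood apart by Dixon's test, 1.52% of them, where chance alone gives about 1 in 20. The log2 fold change of S100a8 in GMP-like cells differed by 1.061 between the pool sets by edgeR's interaction term, 1 of 30 such tests that passed.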

How the results depend on the processing

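Of 60 levels, 12 moved by more than the SD over pools in at least 1 alternative, which gave 15 of 240 values, 11 of them with coarser clusters. The 480 values that leave out 1 of 8 pools cannot move that far by construction and say nothing here. With coarser clusters (resolution 1) S100a8 and S100a9 in GMP-like cells were 1274 and 608.3 CPM, S100a4 and S100a6 10.56 and 35.32 in LMPP-like and 20.29 and 75.79 in LTHSC-like cells, S100a10 384 in LTHSC-like and 487.7 in MK-like cells, S100a6 and S100a11 29.45 and 284.2 in MPP-like cells, and S100a11 453.9 in basophil/mast-like cells. With S100 genes among the variable genes S100a4 and S100a6 were 10.23 and 35.92 CPM in LMPP-like and S100a11 281.3 in MPP-like cells. Without the highest Scrublet scores S100a10 was 63.08 CPM in neutrophil-like cells. The cause was not tested.

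No fold change between CVT and SPF passed with all 8 pools, and many small ones turned. With resolution 1 the log2 fold change was 0.07651 for S100a10 in LTHSC-like cells, -0.1868, -0.2121 and 0.176 for S100a8, S100a9 and S100a4 in GMP-like cells and 0.04607 for S100a6 in MEP-like cells. With GMP-like and neutrophil-like cells as 1 class S100a8, S100a9, S100a4, S100a6, S100a10 and S100a11 had -0.7399, -0.7467, 0.01428, -0.736, 0.0477 and -0.4037. Thinning gave -0.01764 and -0.004052 for S100a10 and S100a11 in LMPP-like cells, -0.08812 for S100a6 in GMP-like and 0.1319 in MEP-like cells. S100 genes among the variable genes gave -0.005261 for S100a10 in LMPP-like and 0.08334 for S100a4 in GMP-like cells, and the pool set as a block gave 0.01233 for the latter. Without cells of 100 or more calprotectin UMIs S100a6 had -0.02141 in GMP-like cells, and S100a8 and S100a9 had 0.05457 and 0.03599 in MEP-like cells. Without the highest Scrublet scores these 2 had 0.04501 and 0.0148. In KL cells S100a11 had 0.04312 without neutrophil-like cells, and S100a4 and S100a11 had 0.002121 and 0.1148 without neutrophil-like and monocyte-like cells. S100a6 in LTHSC-like cells passed only without the filter on low counts (0.6034).

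Leaving out 1 pool in turn gave, in KL cells, -0.8 to 0.1326 for S100a8, -0.771 to 0.1065 for S100a9, -1.006 to 0.089 for S100a6 and -0.2563 to 0.1245 for S100a11. It gave -0.08319 to 0.02223 for S100a10 in LTHSC-like cells. In LMPP-like cells it gave -0.1973 to 0.4129, -0.2002 to 0.3628, -0.02962 to 0.07304 and -0.03394 to 0.0958 for S100a8, S100a9, S100a10 and S100a11. In GMP-like cells it gave -0.1775 to 0.4599, -0.08788 to 0.4107, -0.2407 to 0.06463 and -0.1446 to 0.2231 for S100a8, S100a9, S100a4 and S100a6, and in MEP-like cells -0.3303 to 0.4428 for S100a4 and -0.4156 to 0.2266 for S100a6.

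The number of genes called, 0 in each population, became 15 with DESeq2 and 4 with the pool set as a block in KL cells, 16 without the filter in LTHSC-like cells, 33 without the filter, 1 with DESeq2 and 3 with the block in LMPP-like cells, 29 without the filter in GMP-like cells, and 5, 1 and 2 in MEP-like cells with no filter, DESeq2 and the block. Leaving out a pool gave 0 to 1 in LTHSC-like, 0 to 3 in LMPP-like and 0 to 4 in GMP-like cells. The S100a8 difference between pool sets in GMP-like cells ran from 0.7883 to 1.376 without 1 pool, and was 0.7096 without cells of 100 or more calprotectin UMIs, -0.02719 with resolution 1 and 1.431 (adjusted p = 0.949) with neutrophil-like cells included. No paired analysis was possible because the pools of the groups share no replicate number. Scarce genes were limited by depth, since S100a4 had 17 UMIs in all basophil/mast-like cells and 27 in CMP-like cells.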
